A study of Homo sapiens with 12 samples.

Results

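KLE and Ishikawa cells, human endometrial cancer cell lines, were compared after both had spent 24 h in 200 µM CuCl2, a copper salt given at an overload dose. The comparison took the 3 copper-treated KLE libraries against the 3 copper-treated Ishikawa libraries, which are 6 of the 12 RNA sequencing libraries of the study, and covered all genes. The other 6 libraries were 3 of each line without copper over the same 24 h, which the labels call both untreated and vehicle and which are called untreated here. Each library is an independent biological replicate per the labels, and both lines grew in the same medium with serum. Each line is a single established culture, so a difference between the lines is a difference between these cultures and not between classes of tumour.

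Copper is a cofactor of cytochrome c oxidase and superoxide dismutase, and in excess it binds thiols and misfolds proteins. Cells meet an excess with metallothioneins, small cysteine-rich proteins that hold copper and zinc and are switched on by the metal sensor MTF1, with heat shock chaperones switched on by HSF1, and with antioxidant and proteasome genes switched on by NRF factors. KLE cells are known as a poorly differentiated line without estrogen response, while Ishikawa cells come from a better differentiated adenocarcinoma.

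The copper-treated libraries held between 14050275 and 17716202 counts, and all 12 between 14050275 and 25057003. Replicates of a group correlated at Pearson's r of 0.984 to 0.992 across genes, and copper-treated libraries of unlike lines at 0.936 to 0.94. One library stood apart from its replicates: untreated Ishikawa replicate 2 was the deepest, and its summed level of 8 fibroblast markers was the lowest of its group at 7.87 TPM (transcripts per 1000000). Copper-treated cells of both lines were epithelial by their markers. The 10 epithelial markers summed to 2608 to 2733 TPM in Ishikawa and 6106 to 6190 TPM in KLE libraries. Of these, 7 were called higher in KLE and 0 in Ishikawa cells (70% and 0%, against 33.3% and 32.3% of all genes). EPCAM, an epithelial adhesion molecule, stood at 762 ± 18 TPM in Ishikawa and 993 ± 13.1 TPM in KLE cells (mean ± SD, n = 3). ESR1, the estrogen receptor, stood at only 0.386 ± 0.118 and 0.246 ± 0.144 TPM (mean ± SD, n = 3), so this marker of the Ishikawa line was near 0 in both. The 8 fibroblast markers summed to 17.3 to 39 TPM in Ishikawa and 15.5 to 32.5 TPM in KLE libraries, and 0 of the 8 were called different. The 8 leukocyte markers summed to 8.84 to 12.3 and 29.6 to 36.6 TPM, 7 of them under 1 TPM in KLE cells, where 2 were at 0, with CD68, a lysosomal glycoprotein of macrophages that other cells also make, as the exception. The 6 endothelial markers summed to 2.96 to 4.81 and 2.04 to 3.42 TPM. Of the 4 that were tested, 2 were called higher in KLE and 1 in Ishikawa cells (50% and 25%). In bulk RNA, fewer cells that make a transcript and less of it per cell cannot be told apart.

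Most measured genes differed between the lines under copper. Of 13663 genes tested, 8971 were called at an adjusted p under 0.05 (65.7%), 4555 of them higher in KLE cells (33.3%) and 4416 higher in Ishikawa cells (32.3%). Most differences were small: 5% of genes lay below a log2 difference of -1.44 and 5% above 1.34, and the median was 0.002. Differences of at least 1 on the log2 scale numbered 1063 toward KLE and 1027 toward Ishikawa, and those of at least 3 numbered 136 and 120. In counts per 1000000 counts (CPM) the 3 libraries of one line did not overlap the 3 of the other for 9717 genes (71.1%). Fewer genes separated the untreated lines, where 6838 were called (50%), 3343 higher in KLE (24.5%) and 3495 higher in Ishikawa cells (25.6%).

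The 8971 differences under copper were of several kinds when set beside the untreated lines, whose libraries are not those of the copper comparison. For 4193 genes (46.7%) the untreated lines differed in the same direction. For 924 genes (10.3%) they differed in the opposite direction, and 408 of these were higher in KLE and 516 higher in Ishikawa cells under copper. Another 2532 genes (28.2%) were called with copper, were not called without it, and had a line difference that itself changed. The remaining 1322 (14.7%) were called with copper only, but the change of the line difference was not called, so these cannot be counted as specific to copper. In turn, 959 genes that differed in untreated cells were no longer called under copper and had a called change. The change itself, which is the line difference with copper minus that without and so uses all 12 libraries, was called for 6206 genes (45.4%), 3358 toward KLE (24.6%) and 2848 toward Ishikawa (20.8%). That split depended on the settings, with 54.1% of the calls toward KLE here, 64.8% on log2(TPM + 1), 47.9% with size factors, 46.2% with DESeq2 and 48.9% with no filter on low counts. Large changes pointed the other way: 204 genes shifted by at least 2 on the log2 scale toward Ishikawa and 34 toward KLE.

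**Figure D1:**
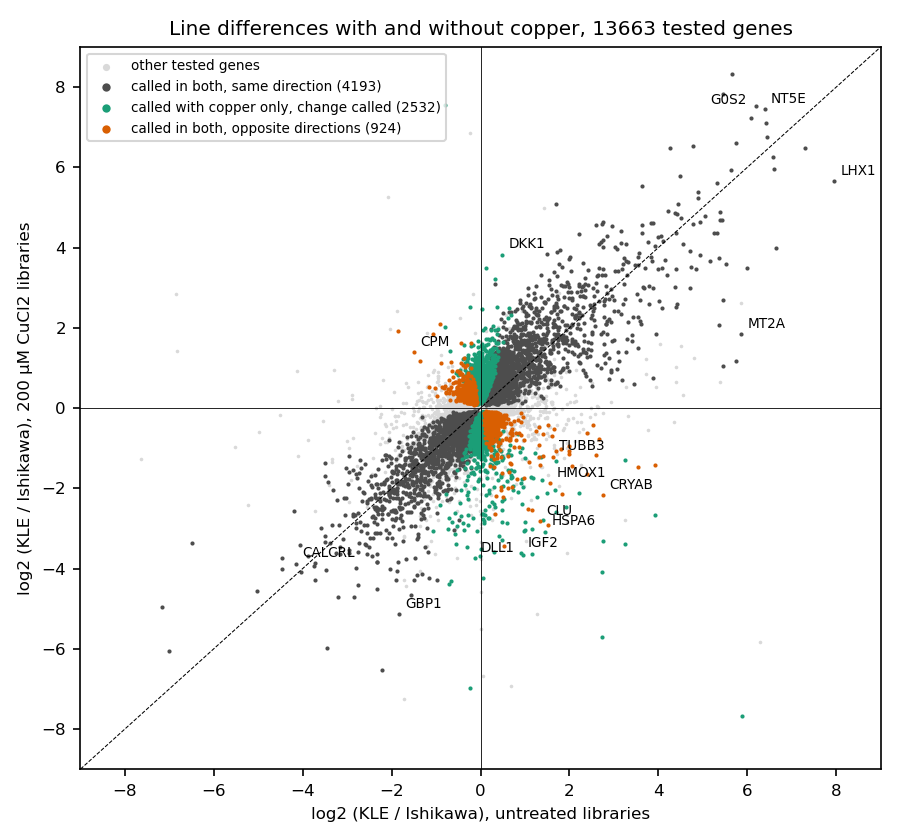
Log2 difference between KLE and Ishikawa cells in untreated libraries (horizontal axis) and in libraries after 200 µM CuCl2 (vertical axis), 1 point per tested gene, coloured by the kind of difference, with the dashed line marking equal differences. The 4193 genes called in both with the same direction run along the diagonal, and the 924 called in opposite directions fall in the upper left and lower right parts, where CRYAB, HMOX1, CLU and TUBB3 lie far below it.

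The genes furthest above Ishikawa levels in copper-treated KLE cells also separated the untreated lines. G0S2, an inhibitor of the triglyceride lipase ATGL, stood at 3.46, 2.29 and 2.56 CPM in the 3 copper-treated Ishikawa libraries and at 496, 533 and 515 CPM in the KLE libraries. That is a 184-fold difference, or 7.53 ± 0.08 on the log2 scale (SE, adjusted p = 2.73e-27). NT5E, the surface enzyme CD73 that makes adenosine, stood at 2.09, 1.88 and 1.98 against 353, 352 and 343 CPM, a log2 difference of 7.46 ± 0.08 (SE). Both SEs are too small, since the copper-treated Ishikawa libraries together held only 132 counts of G0S2 and 94 of NT5E. For both genes the KLE libraries lay together far above all Ishikawa libraries, and both differences were wider than without copper, by 1.32 and 1.06 on the log2 scale.

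AXL, a receptor tyrosine kinase of the TAM family, stood at 2.98, 1.88 and 2.56 CPM in Ishikawa and 240, 233 and 249 CPM in KLE libraries, 97.3-fold higher. PLAT, tissue plasminogen activator, stood at 0.835, 1.59 and 1.61 against 103, 98.2 and 103 CPM, and its difference of 6.25 was 6.57 without copper, a change that was not called (adjusted p = 0.35). NRP2, a co-receptor for semaphorins and VEGF, stood at 3.76, 2.47 and 3 against 105, 104 and 106 CPM. The genes with the largest differences also included TMEM200A, ELFN2, TLL2, FAM83A and ZBED2, with log2 differences between 5.39 and 7.24. LHX1, a LIM homeobox factor of the early Müllerian duct and kidney, was the one of them with a called narrowing: 0.358, 0.353 and 0.293 CPM in Ishikawa against 16.6, 17.7 and 18 CPM in KLE libraries, a log2 difference of 5.66 that was 7.96 without copper (change -2.30, adjusted p = 0.0016). Each of these genes was called in both conditions in the same direction.

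In the same ranking at a mean of at least 5 CPM, KLE cells lay furthest below Ishikawa levels for GBP1 and EN2. The largest differences also included those of muscle-type actin genes and the Notch ligand DLL1. GBP1, an interferon-inducible GTPase, stood at 35.1, 31.5 and 33.9 CPM in Ishikawa and 0.809, 1.39 and 0.619 CPM in KLE libraries, a log2 difference of -5.14 ± 0.20 (SE, adjusted p = 4.4e-16). Untreated Ishikawa cells held 1.65 to 3.25 CPM of it, so the difference without copper was -1.84. DLL1, a ligand of Notch receptors, stood at 217, 259 and 217 against 18.2, 15.1 and 18.6 CPM, 13.4-fold higher in Ishikawa cells. Its untreated levels overlapped, at 2.7, 3.33 and 3.07 CPM in Ishikawa and 2.04, 3.09 and 3.22 CPM in KLE libraries, and its change of -3.61 was called (adjusted p = 1.1e-09).

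ACTA2, smooth muscle actin, stood at 57.1, 47.1 and 56.8 CPM in copper-treated Ishikawa and 2.74, 3.58 and 1.93 CPM in KLE libraries. ACTA1, skeletal muscle actin, stood at 50.7, 57.7 and 52.4 against 3.05, 2.06 and 3.44 CPM. Reads of the near-identical actin genes may have been shared among them by the authors' quantification, so their separate values are uncertain. ACTN2, the muscle alpha-actinin that cross-links actin, was 13.4-fold higher in Ishikawa cells. EN2, an engrailed homeobox factor, stood at 25.3, 26.6 and 24.1 against 1.49, 0.996 and 1.31 CPM, and NEFM, a neurofilament subunit, at 13.1, 13.3 and 11.8 against 0.747, 1.19 and 0.894 CPM. NEFM had at most 0.0659 CPM in any untreated library, and at that depth its change between conditions was not called (adjusted p = 0.22).

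Other genes higher in Ishikawa cells were already apart without copper. CALCRL, the receptor shared by CGRP and adrenomedullin, stood at 25.8, 24.5 and 24.4 CPM in copper-treated Ishikawa and 1.74, 1.59 and 1.72 CPM in KLE libraries. Its log2 difference was -3.88 with copper and -4.15 without, and the change was not called (adjusted p = 0.28). PLCH2, a phospholipase C, differed by -4.04 with copper and -3.48 without. CP, ceruloplasmin, the copper-carrying ferroxidase of plasma, stood at 13.8, 13.3 and 15.4 against 1.06, 1.06 and 0.963 CPM, and its difference widened from -1.68 to -3.77 (change adjusted p = 3.7e-08).

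**Figure D2:**
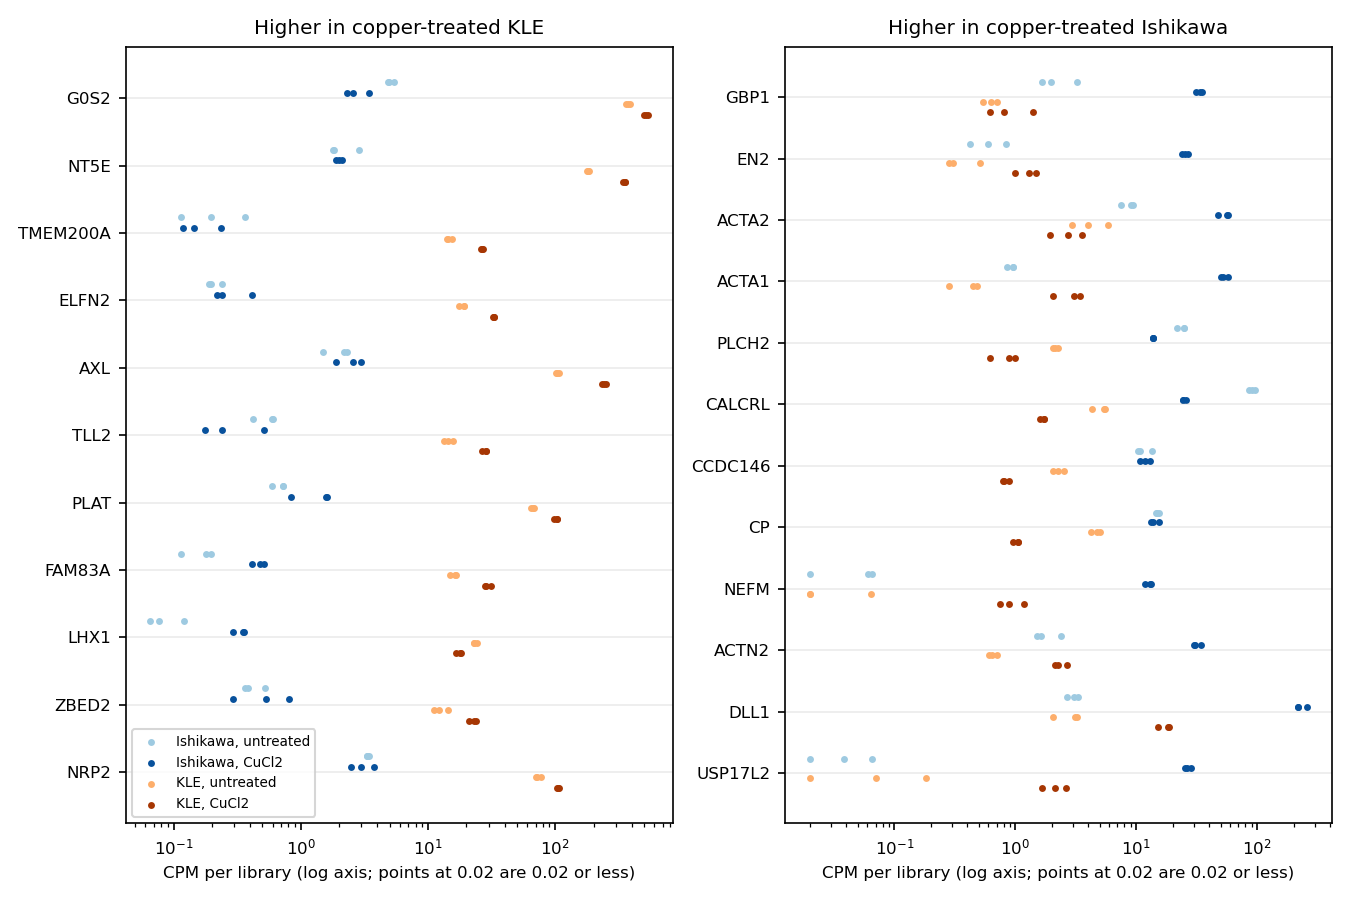
CPM per library on a log axis for 11 genes with the largest differences toward KLE and 12 toward Ishikawa cells under copper. The genes were ranked at a mean of at least 5 CPM, and each of the 4 groups has 3 points. The 11 genes higher in KLE cells are apart in both conditions, whereas several genes higher in copper-treated Ishikawa cells, such as DLL1, EN2 and NEFM, have untreated levels that lie together for both lines.

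Protein-folding stress genes were higher in Ishikawa cells under copper, although most were higher in KLE cells without it. Of 31 heat shock chaperone genes, 24 were higher in copper-treated Ishikawa cells and 2 in KLE cells. These were 77.4% and 6.45%, against 32.3% and 33.3% of all genes. The median log2 difference was -0.41 against 0.002 over all genes tested. In untreated cells 16 of the 31 were higher in KLE and 5 in Ishikawa cells (median 0.29). The change was called toward Ishikawa for 22 and toward KLE for 1, against 20.8% and 24.6% of all genes. HSPA1B, the inducible cytosolic HSP70, stood at 5759, 6759 and 5724 CPM in copper-treated Ishikawa and 895, 834 and 1002 CPM in KLE libraries, a log2 difference of -2.74 ± 0.08 (SE, adjusted p = 2.2e-10). Its untreated levels were 202 to 217 and 230 to 245 CPM and the untreated difference was not called.

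HSPA1A, its near-identical neighbour, stood at 632, 745 and 625 against 62.2, 67.2 and 54.2 CPM, and reads of the pair cannot be separated with certainty. HSPA6, an HSP70 that is almost silent without stress, stood at 926, 1030 and 919 against 112, 99 and 130 CPM. DNAJB1, the HSP40 partner of HSP70, stood at 1714, 1866 and 1667 against 414, 411 and 442 CPM. No copper-treated library of one line reached the levels of the other for these genes. HSPH1, an HSP110 that exchanges nucleotide on HSP70, differed by -1.96 on the log2 scale, and HSP90AA1, the inducible cytosolic HSP90, by -0.64. The 2 genes higher in KLE cells were DNAJB2, a neuronal HSP40, at 0.57, and HSF1, the heat shock transcription factor, at 0.14. With size factors and with DESeq2 only 1 was called. Mitochondrial HSPD1 did not pass the test (-0.03).

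CRYAB, the small heat shock protein alphaB-crystallin, reversed its order. It stood at 131, 138 and 128 CPM in copper-treated Ishikawa and 27.8, 28.1 and 32.8 CPM in KLE libraries, a log2 difference of -2.17 (adjusted p = 3.7e-11). Untreated Ishikawa libraries held 0.988, 0.229 and 1.27 CPM of it and untreated KLE libraries 5, 4.49 and 5.4 CPM, a difference of 2.75. The lowest of these values was in untreated Ishikawa replicate 2, and the change of -4.92 was -4.29 without that library. CLU, the extracellular chaperone clusterin, stood at 129, 144 and 133 against 19.2, 18.5 and 20 CPM with copper and was higher in KLE cells without it, by 1.33 on the log2 scale.

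Proteasome subunits moved the same way by smaller amounts. In untreated cells 26 of the 31 subunits were higher in KLE and 0 in Ishikawa cells (median 0.21). Under copper 22 were higher in Ishikawa and 4 in KLE cells (median -0.25). The shares under copper were 71% and 12.9%, against 32.3% and 33.3% of all genes. PSMD12, a lid subunit, stood at 381, 417 and 403 CPM in copper-treated Ishikawa and 261, 244 and 252 CPM in KLE libraries, a log2 difference of -0.67 that was 0.41 without copper. PSMC4, an ATPase of the base, differed by -0.66 with and 0.26 without copper. The change was called toward Ishikawa for 25 of 31 subunits and toward KLE for 0, against 20.8% and 24.6% of all genes. The largest change, of PSMD12, was -1.08.

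NRF2 targets, the antioxidant and detoxification genes, were mostly higher in Ishikawa cells under copper. Of 32 tested, 23 were higher in Ishikawa and 5 in KLE cells (median -0.57), while untreated cells had 12 and 9 (median -0.05). The shares under copper were 71.9% and 15.6%, against 32.3% and 33.3% of all genes. HMOX1, the heme oxygenase that degrades heme to biliverdin and iron, stood at 213, 219 and 196 CPM in copper-treated Ishikawa and 55.3, 53.3 and 63.6 CPM in KLE libraries, a log2 difference of -1.87 ± 0.06 (SE, adjusted p = 9e-18). Without copper it was higher in KLE cells, at 3.24, 3.09 and 3.54 against 1.25, 0.956 and 1.21 CPM. GCLM, the regulatory subunit of glutathione synthesis, differed by -1.07 with copper. SRXN1, sulfiredoxin, differed by -0.61 with copper and 0.22 without. TXNRD1, thioredoxin reductase, was 0.10 higher in KLE cells, the smallest called difference of the 5, which were 4 with size factors and with DESeq2. AKR1C1, AKR1C2 and AKR1C3, aldo-keto reductases of steroid and carbonyl reduction, differed by -1.75, -1.36 and -1.49, but share sequence and may share reads.

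Both ferritin chains were abundant and went opposite ways. FTH1, the ferroxidase heavy chain, was higher in KLE cells by 1.47 on the log2 scale under copper and 1.90 without. FTL, the light chain, stood at 2481, 2304 and 2374 CPM in copper-treated Ishikawa and 1144, 1094 and 1169 CPM in KLE libraries, a difference of -1.07 where the untreated one was not called (-0.08).

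**Figure D3:**
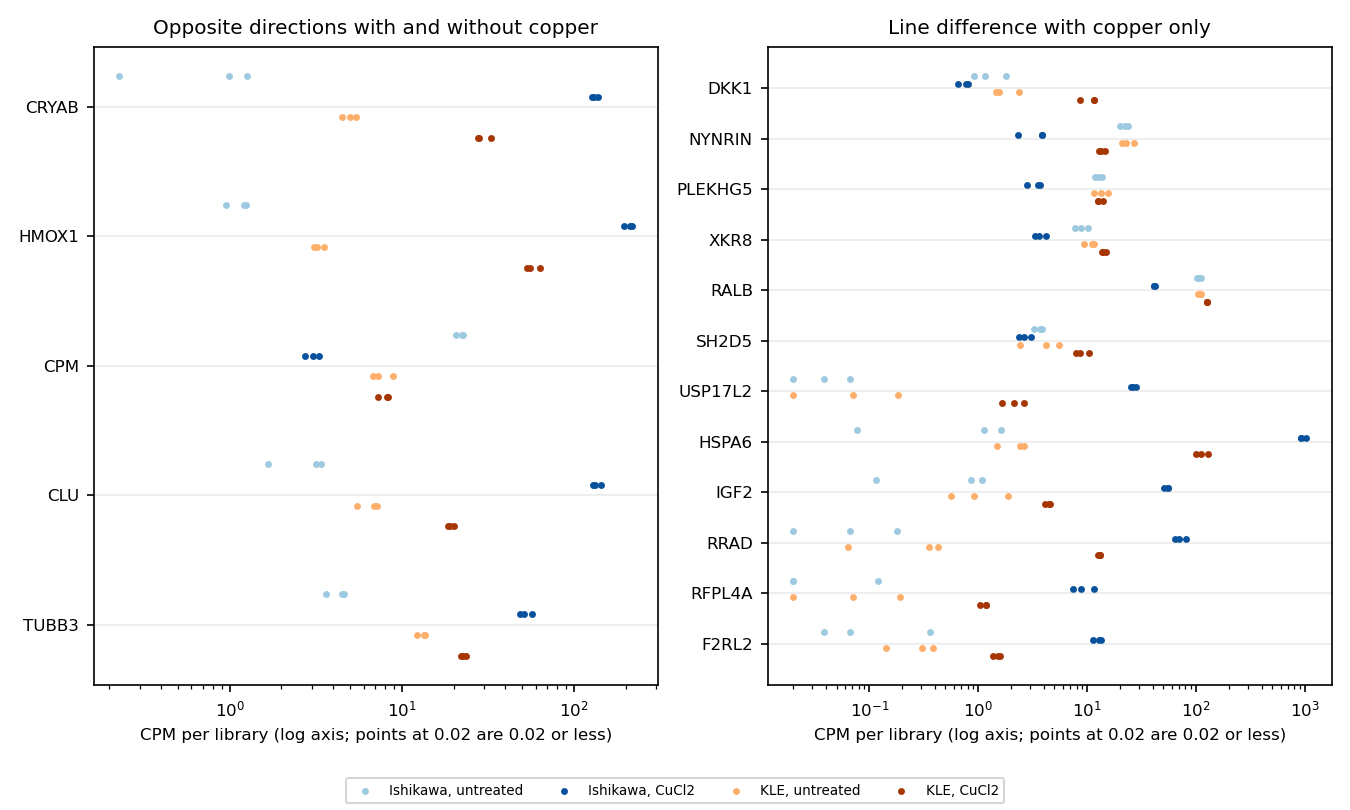
CPM per library on a log axis for the genes that changed order with copper (left) and those with a line difference called with copper only (right), with 3 points for each of the 4 groups. In the left panel CRYAB, HMOX1, CLU and TUBB3 are higher in KLE cells without copper and higher in Ishikawa cells with it, and the gene CPM shows the reverse; in the right panel RALB, NYNRIN and PLEKHG5 are lowest in copper-treated Ishikawa libraries.

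Metallothioneins had the opposite order under copper, with KLE cells on top for 3 of the 4 members tested (75%, against 33.3% of all genes). MT2A, the most widely expressed of them, stood at 814, 839 and 819 CPM in copper-treated Ishikawa and 2942, 2928 and 3048 CPM in KLE libraries. The log2 difference of 1.85 ± 0.11 (SE, adjusted p = 5.1e-07) was far below the untreated one of 5.87, where Ishikawa libraries held 8.45 to 15.2 CPM and KLE libraries 669 to 737 CPM. MT1X stood at 235, 208 and 220 against 339, 388 and 375 CPM, and its difference went from 2.89 to 0.73. MT1G differed by 1.14 under copper, had at most 0.129 CPM in any untreated library, and lost its call on log2(TPM + 0.1) (adjusted p = 0.21). MT1F, higher in untreated KLE cells by 2.53, was higher in Ishikawa cells under copper, at 48.1, 41.2 and 44.7 against 32.5, 33.8 and 34.1 CPM. Reads may be shared within this family.

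Of the 21 copper transport and delivery genes, 8 were higher in KLE and 7 in Ishikawa cells under copper, a share of each near that of all genes, and the split was 7 and 8 with DESeq2-style size factors and 10 and 7 with library totals. The exporters were on the Ishikawa side. ATP7B, a copper-pumping ATPase, stood at 32.5, 32.9 and 33 CPM in Ishikawa and 12.1, 12.7 and 12.5 CPM in KLE libraries, and its difference of -1.40 was -1.53 without copper. Its relative ATP7A differed by -0.86 and the importer SLC31A1 (CTR1) by -0.48. MTF1, the metal sensor, stood at 89.1, 90 and 92.6 against 54.6, 55 and 50.7 CPM, a difference of -0.76, where that without copper was -0.07 and not called. On the KLE side were the copper chaperone ATOX1 at 0.70 and the metalloreductases STEAP4 at 3.32, STEAP1 at 1.70 and STEAP2 at 1.14. Several calls in this list were close to the threshold. SLC31A2, a CTR1 relative, had a difference of 0.95 that lost its call without copper-treated Ishikawa replicate 1 (0.51) or 2 or KLE replicate 1 or 2 and with DESeq2, and was 1.47 without Ishikawa replicate 3. SCO2, which delivers copper to cytochrome c oxidase, had 0.69 and lost its call without any 1 of the copper-treated libraries but KLE replicate 1, with 0.43 without KLE replicate 3, and also with DESeq2 and limma-voom. STEAP3 had 0.20 and lost its call without any 1 of them but KLE replicate 3, with 0.12 without Ishikawa replicate 1, and also with size factors, with DESeq2 and with no filter on low counts. SLC30A1, the zinc exporter that metal induces, stood at 196, 238 and 199 against 202, 192 and 179 CPM. It was not called in the main fit (-0.14, adjusted p = 0.0536). It was called with size factors (-0.19, adjusted p = 0.0157), upper-quartile factors, a filter at 1 CPM and no filter on low counts. DESeq2 (-0.19, adjusted p = 0.00976) and the replicate block called it too. So did fits without copper-treated Ishikawa replicate 1 (-0.24) or 3 (-0.23) or KLE replicate 1 (-0.19).

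The lipoylated enzymes and the TCA cycle, which bind excess copper in the cell death form called cuproptosis, differed little by their median (-0.08). Of 27 genes, 12 were higher in Ishikawa and 6 in KLE cells (44.4% and 22.2%, against 32.3% and 33.3% of all genes). The 12 were 9 with library totals and on log2(TPM + 1), and 13 with size factors. SUCLG1, a succinate-CoA ligase subunit, differed by -1.06 and DLST, a lipoylated transferase of the 2-oxoglutarate complex, by -0.81. FDX1, the ferredoxin upstream of lipoylation, was 0.31 higher in KLE cells, and DLAT, the lipoylated pyruvate dehydrogenase subunit, did not pass the test (-0.09). Of the 13 genes of the mitochondrial genome, 9 were higher in Ishikawa cells and 0 in KLE cells (median -0.59), against 1 and 0 without copper. Under copper these were 69.2% and 0%, against 32.3% and 33.3% of all genes. The mitochondrial genes took 6.2 to 6.4% of counts in copper-treated Ishikawa and 4.05 to 4.72% in KLE libraries. The part of this share of counts in other results was not tested.

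Promoter sequences are shown for members of the 3 metal and stress lists with the largest called difference in a direction, where the RefSeq promoter table (GRCh38.p14, 250 bases before to 50 after the gene start) held an entry. Capitals mark matches on either strand to TGCNCNC, the metal response element core, in MT2A (chr16:56608334-56608633, plus strand), and to GAANNTTC, the heat shock element core, in HSPA1A (chr6:31815293-31815592, plus strand) and DNAJB2 (chr2:219279116-219279415, plus strand).
MT2A: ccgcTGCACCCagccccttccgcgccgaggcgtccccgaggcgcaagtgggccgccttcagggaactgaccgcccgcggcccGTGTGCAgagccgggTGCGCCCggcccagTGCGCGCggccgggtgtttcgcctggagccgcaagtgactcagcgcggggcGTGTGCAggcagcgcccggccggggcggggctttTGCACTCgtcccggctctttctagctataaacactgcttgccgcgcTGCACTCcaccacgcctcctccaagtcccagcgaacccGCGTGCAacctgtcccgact
HSPA1A: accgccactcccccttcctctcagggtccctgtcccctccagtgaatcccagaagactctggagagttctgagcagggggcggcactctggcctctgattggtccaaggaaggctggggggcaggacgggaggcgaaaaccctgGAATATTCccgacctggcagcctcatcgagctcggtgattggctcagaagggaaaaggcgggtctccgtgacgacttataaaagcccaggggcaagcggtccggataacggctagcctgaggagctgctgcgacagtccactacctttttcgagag
DNAJB2: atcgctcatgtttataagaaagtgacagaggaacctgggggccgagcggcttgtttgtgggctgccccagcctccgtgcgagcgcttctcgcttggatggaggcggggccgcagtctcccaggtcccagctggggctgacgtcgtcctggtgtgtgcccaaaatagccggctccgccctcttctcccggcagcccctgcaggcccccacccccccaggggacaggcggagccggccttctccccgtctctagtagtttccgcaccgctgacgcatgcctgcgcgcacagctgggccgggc
MT2A, higher in copper-treated KLE cells, held 8 matches to the metal core, which 55.9% of the 35116 promoters in the table match at least once. HSPA1A, higher in copper-treated Ishikawa cells, held 1 match to the heat shock core, which 6.8% of promoters hold, and DNAJB2, higher in KLE cells, held 0. Of the heat shock list, 28 genes had a promoter entry and 10 of these a match. Of the NRF2 list, 24 had one and 5 a match to TGACNNNGC, the antioxidant response element core, which 13.3% of all promoters hold. A match describes letters, not binding.

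Inflammatory and immediate-early genes also changed sides. Of 25 chemokine, cytokine and NF-kB feedback genes, 15 were higher in untreated KLE cells and 0 in Ishikawa cells (median 0.76). Under copper 12 were higher in Ishikawa and 6 in KLE cells (median -0.40). The shares under copper were 48% and 24%, against 32.3% and 33.3% of all genes. The change was called toward Ishikawa for 17 and toward KLE for 0, against 20.8% and 24.6% of all genes. CXCL8, the neutrophil chemokine, stood at 104, 112 and 100 CPM in copper-treated Ishikawa and 38.1, 48.2 and 54.5 CPM in KLE libraries, a difference of -1.17 that was 2.60 without copper. CCL20, a chemokine of dendritic cells, stood at 7.1, 6.88 and 6.95 against 0.622, 0.531 and 0.963 CPM, and TNFAIP3, the feedback inhibitor A20, differed by -1.18. The interleukins of the IL-1 family stayed with KLE cells. IL1A stood at 0.537, 0.353 and 0.805 against 4.98, 6.24 and 7.84 CPM. IL1B had 0 counts in the copper-treated Ishikawa libraries and 111 in the KLE libraries. With a floor of 3 counts over the group the ratio was 39.3, and its 95% counting interval without a floor began at 31.4. LIF, a cytokine of the IL-6 family, was higher in KLE cells by 2.70.

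Of 30 immediate-early and AP-1 genes, 17 were higher in copper-treated Ishikawa and 9 in KLE cells (median -0.50), against 6 and 16 without copper. Under copper these were 56.7% and 30%, against 32.3% and 33.3% of all genes. ARC, an activity-regulated cytoskeletal gene, stood at 235, 291 and 236 CPM in Ishikawa and 29.3, 23.6 and 29.9 CPM in KLE libraries, while no untreated library exceeded 0.836 CPM. ATF3, a stress factor of the CREB family, stood at 160, 166 and 154 against 41, 50.6 and 49.9 CPM, a difference of -1.76 that was 0.82 without copper. DUSP4, a phosphatase of nuclear MAP kinases, was on the KLE side with 3.09, much as without copper (3.23). FOSL1, an AP-1 subunit, was also higher in KLE cells, by 1.12, although its untreated difference was 2.79.

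Integrated stress response genes differed in both directions. Of 33, 18 were higher in Ishikawa and 13 in KLE cells under copper (54.5% and 39.4%, against 32.3% and 33.3% of all genes). Untreated cells had 6 and 17 (median 0.21), and the change was called toward Ishikawa for 17 and toward KLE for 5. The Ishikawa side held the stress regulators NUPR1 (-2.01), DDIT3, which encodes CHOP (-1.35), and SESN2 (-1.19). The KLE side held the amino acid carriers SLC7A5 (1.21) and SLC3A2 (0.75), partners in 1 transporter, and the glutathione-degrading enzyme CHAC1 (0.93). In the list of 18 amino acid transporters, 12 were higher in KLE and 5 in Ishikawa cells (66.7% and 27.8%). SLC1A1, a glutamate and cysteine carrier, stood at 1.25, 1.23 and 1.32 against 11.3, 10.5 and 10.7 CPM under copper, and its difference had been only 0.32 without it. The endoplasmic reticulum folding genes leaned toward Ishikawa cells by small amounts under copper, with 15 of 26 higher there and 5 in KLE cells (median -0.18). These were 57.7% and 19.2%. Untreated cells had 4 and 12 (median 0.05), and the change was called toward Ishikawa for 14 and toward KLE for 2.

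Genes of G2 and mitosis were higher in KLE cells under copper. Of 33 tested, 20 were higher in KLE and 4 in Ishikawa cells (median 0.22), whereas untreated cells had 4 and 12 (median -0.05). The shares under copper were 60.6% and 12.1%, against 33.3% and 32.3% of all genes. The change was called toward KLE for 21 and toward Ishikawa for 0, against 24.6% and 20.8% of all genes. PLK1, the polo-like mitotic kinase, stood at 24.2, 24.6 and 26.4 CPM in copper-treated Ishikawa and 67.6, 67.2 and 61.3 CPM in KLE libraries. Its untreated levels overlapped at 110 to 117 and 108 to 113 CPM. PTTG1, securin, stood at 20.9, 16.6 and 22.4 against 48.5, 49.5 and 50.8 CPM, and MKI67, the Ki-67 antigen, differed by 0.64 with copper and -0.20 without. The G1 and S phase list was near balance, with 13 of 28 higher in KLE and 9 in Ishikawa cells (median 0.06). These were 46.4% and 32.1%, against 33.3% and 32.3% of all genes.

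**Figure D4:**
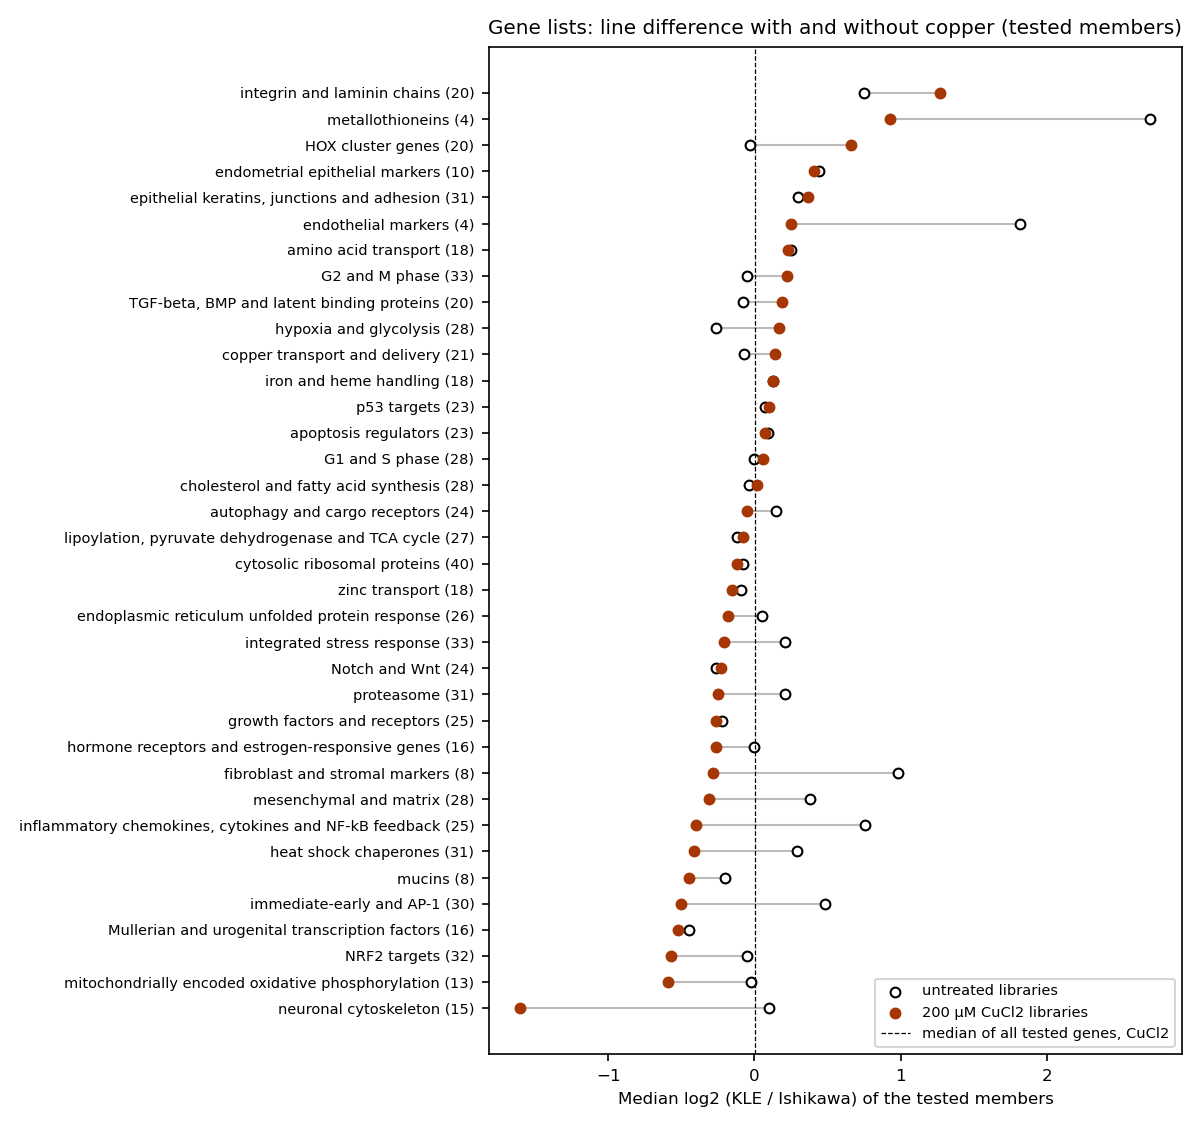
Median log2 difference between KLE and Ishikawa cells over the tested members of each gene list with at least 4 tested members (number in brackets), in untreated libraries (open circles) and after 200 µM CuCl2 (filled circles), with the dashed line at the median of all tested genes under copper. Heat shock, proteasome, inflammatory and immediate-early medians lie on opposite sides of the line with and without copper, while integrin and laminin chains stay on the KLE side.

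Integrin and laminin chains were mostly higher in KLE cells in both conditions. Of 20 integrin and laminin chains tested, 14 were higher in KLE and 5 in Ishikawa cells under copper (median 1.27). These were 70% and 25%, against 33.3% and 32.3% of all genes. Without copper 13 and 4 were higher (median 0.75). ITGA3, the integrin chain that pairs with beta-1 to bind laminin, stood at 59.6, 59.3 and 63.2 CPM in Ishikawa and 1101, 1066 and 1073 CPM in KLE libraries. LAMA3, a chain of laminin-332, stood at 65.6, 65.5 and 67.7 against 1210, 1143 and 1168 CPM. LAMB3, another chain of that laminin, differed by 2.51. The change of ITGA3, at 0.06, was not called, while the difference of LAMB3 had come down from 4.41.

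Of 31 keratin, junction and adhesion genes of epithelia, 18 were higher in copper-treated KLE and 3 in Ishikawa cells (median 0.37). These were 58.1% and 9.68%, against 33.3% and 32.3% of all genes. KRT8 and KRT18, the paired keratins of simple epithelium, differed by 1.64 and 1.60 with copper and by 0.52 and 0.82 without. KRT8 stood at 564, 579 and 593 CPM in Ishikawa and 1746, 1811 and 1845 CPM in KLE libraries. CDH1, E-cadherin, was almost level at 0.17. PLAU, the secreted protease urokinase, stood at 10.3, 10.2 and 10.2 against 243, 257 and 252 CPM, and TGM2, a protein cross-linking transglutaminase, at 29.9, 29.6 and 30.1 against 739, 709 and 714 CPM. Both were named after their values were seen.

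The mesenchymal and matrix list split, with 12 of 28 higher in Ishikawa and 6 in KLE cells under copper. These were 42.9% and 21.4%, against 32.3% and 33.3% of all genes. After ACTA2, the largest differences of this list toward Ishikawa were those of ANKRD1, TAGLN and THBS1. ANKRD1, a muscle ankyrin repeat protein, stood at 367, 374 and 358 CPM in Ishikawa and 43.7, 40.1 and 47.4 CPM in KLE libraries, and TAGLN, the smooth muscle actin binder transgelin, at 248, 246 and 254 against 32.2, 29.1 and 29.1 CPM. THBS1, thrombospondin, differed by -2.64 and CCN2, the matricellular factor CTGF, by -1.96, although both were higher in KLE cells without copper (0.32 and 0.45). On the KLE side were TNC, tenascin (2.01), FN1, fibronectin (1.62), and TIMP1, a metalloproteinase inhibitor (2.11). The fibroblast collagens COL1A1, COL1A2 and COL3A1 had differences of 0.06, -0.21 and -0.17 and were not called.

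Neuronal cytoskeleton genes were higher in copper-treated Ishikawa cells for 11 of 15 members and in KLE cells for 1 (median -1.60). These were 73.3% and 6.67%, against 32.3% and 33.3% of all genes. Untreated cells had 5 and 6 (median 0.10). TUBB3, neuronal beta-tubulin, stood at 51.4, 57.1 and 48.8 CPM in Ishikawa and 22, 22.7 and 23.5 CPM in KLE libraries, but at 4.61, 4.47 and 3.62 against 13.7, 13.5 and 12.2 CPM without copper. MAP1B, a microtubule-binding protein of axons, differed by -1.60 with and 0.65 without copper. The member higher in KLE cells was STMN1, stathmin, which destabilises microtubules in dividing cells as well (0.41).

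Growth factor signalling differed member by member. Of 25 growth factors and receptors tested, 12 were higher in Ishikawa and 8 in KLE cells under copper (median -0.26). These were 48% and 32%, against 32.3% and 33.3% of all genes. Untreated cells also had 12 and 8 (median -0.22). MET, the receptor of hepatocyte growth factor, stood at 38.2, 37.9 and 40 CPM in copper-treated Ishikawa and 413, 417 and 443 CPM in KLE libraries. EGFR was 1.87 higher in KLE cells on the log2 scale, its ligand HBEGF 3.28 and its ligand TGFA 2.31. KIT, the stem cell factor receptor, stood at 0.835, 0.353 and 0.805 against 12.9, 13.5 and 13.9 CPM, and its difference grew by 2.14. The Ishikawa side held IGF2, an insulin-like growth factor, at 55.4, 50.7 and 55.1 against 4.48, 4.12 and 4.54 CPM. FGFR3 (-2.43) and IGF1R (-1.73), receptor kinases, were on that side in untreated cells too (-2.21 and -1.70). In the Notch and Wnt list 11 of 24 were higher in Ishikawa and 7 in KLE cells (45.8% and 29.2%, against 32.3% and 33.3% of all genes), and 7 each on log2(TPM + 1). LGR5, the R-spondin receptor of epithelial stem cells, stood at 9.07, 9.87 and 7.03 against 0.622, 0.664 and 0.344 CPM, and AXIN2, a feedback target of Wnt signalling, differed by -2.60.

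Lineage genes separated the lines as well. Of 16 Müllerian and urogenital transcription factors tested, 9 were higher in Ishikawa and 6 in KLE cells under copper, against 10 and 2 without it. Under copper these were 56.2% and 37.5%, against 32.3% and 33.3% of all genes. PAX8, the factor kept by Müllerian epithelia, stood at 271, 267 and 261 CPM in copper-treated Ishikawa and 365, 377 and 358 CPM in KLE libraries, a difference of 0.46 that was -0.11 without copper. EMX2 and MSX1, homeobox factors of the urogenital tract, differed by -2.47 and -2.32, close to their untreated differences of -2.35 and -2.66. Of 20 HOX genes tested, 11 were higher in KLE and 3 in Ishikawa cells (55% and 15%, median 0.66). Untreated cells had 3 and 4 (median -0.03). HOXA10 and HOXA11, the HOX factors of the uterus, differed by 0.71 and 0.84 under copper and were not called without it. Of 16 hormone receptor and estrogen-responsive genes, 6 were higher in Ishikawa and 3 in KLE cells (37.5% and 18.8%). The Ishikawa share was near the 32.3% of all genes. AGR2, a disulfide isomerase among them, stood at 50, 43.6 and 48.2 against 10.4, 12.3 and 10.1 CPM. Of 8 mucins, 5 were higher in Ishikawa and 2 in KLE cells (62.5% and 25%, median -0.45). The split was 4 and 3 with library totals and 3 each on log2(TPM + 1), where the median was -0.07. MUC5AC, a gel-forming mucin, differed by -2.18 and MUC4, a membrane mucin, by 1.66.

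Hypoxia, glycolysis and lipid synthesis genes differed in both directions. NDRG1, a hypoxia- and metal-responsive gene, stood at 13.5, 14.2 and 13.5 CPM in Ishikawa and 236, 259 and 255 CPM in KLE libraries. In the list of 28 hypoxia and glycolysis genes, 15 were higher in KLE and 10 in Ishikawa cells (median 0.17), where untreated cells had 8 and 15 (median -0.26). The shares under copper were 53.6% and 35.7%, against 33.3% and 32.3% of all genes. BNIP3, a mitophagy receptor, stood at 14.3, 15 and 15.3 against 40.8, 46.7 and 49.1 CPM under copper and was higher in Ishikawa cells without it (-0.44). INSIG1, which retains the sterol sensor in the endoplasmic reticulum, stood at 331, 359 and 322 against 95.8, 103 and 106 CPM. The cholesterol list as a whole had a median of 0.02, which turned to -0.02 with DESeq2 size factors. Of 40 cytosolic ribosomal protein genes, 20 were higher in Ishikawa and 1 in KLE cells (50% and 2.5%, median -0.12). The 20 were 12 on log2(TPM + 1), a share near that of all genes, and 27 with DESeq2.

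A few genes were not called in untreated cells and parted by a lower level in copper-treated Ishikawa cells. RALB, a small GTPase of the Ras family, stood at 41.5, 42.1 and 40.9 CPM in copper-treated Ishikawa and 125, 126 and 125 CPM in KLE libraries. Without copper it stood at 106, 102 and 110 and at 109, 112 and 105 CPM, so the copper-treated Ishikawa libraries lay below all others and the copper-treated KLE libraries, by less, above all others. PLEKHG5, a guanine nucleotide exchange factor, and XKR8, a phospholipid scramblase of dying cells, had copper differences of 1.96 and 1.95. DKK1, a secreted Wnt inhibitor, parted instead by a higher KLE level, at 0.656, 0.764 and 0.805 against 11.6, 8.56 and 11.5 CPM. The gene CPM, carboxypeptidase M of the cell surface, exchanged places in the other direction: 2.74, 3.06 and 3.29 CPM in copper-treated Ishikawa and 8.34, 7.3 and 8.19 in KLE libraries, but 20.7, 22.6 and 22.4 against 6.83, 8.92 and 7.33 without copper.

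Other genes that separated untreated cells came level under copper. CREB5, a CREB-family factor, stood at 14, 16.9 and 12.4 CPM in copper-treated Ishikawa and 14.5, 17.9 and 16.4 CPM in KLE libraries, with overlap, after an untreated difference of 2.92. L1CAM, a neural adhesion molecule, differed by 0.14 with copper (not called) and 2.00 without. MEOX1, a mesoderm homeobox factor, went from -1.52 to -0.16, which was not called. These 3, and list members beyond the 3 largest called differences of a list, were named after their values were seen. A difference that was not called is not shown to be absent.

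By chromosome, the median line difference stayed between -0.07 and 0.07 under copper on all but chromosomes 12 and 20 and the mitochondrial genome. The 348 tested genes of chromosome 20 had a median of 0.21 with copper and 0.15 without, and 50.9% of them were called higher in copper-treated KLE cells. The 717 genes of chromosome 12 had medians of -0.19 and -0.12, and 49.0% were called higher in Ishikawa cells. In windows of 10 Mb with at least 20 tested genes, the highest median was that of chromosome 20 from 10 to 20 Mb, at 0.54 with copper and 0.53 without, and the lowest that of chromosome 12 from 80 to 90 Mb, at -0.5 and -0.46.

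**Figure D5:**
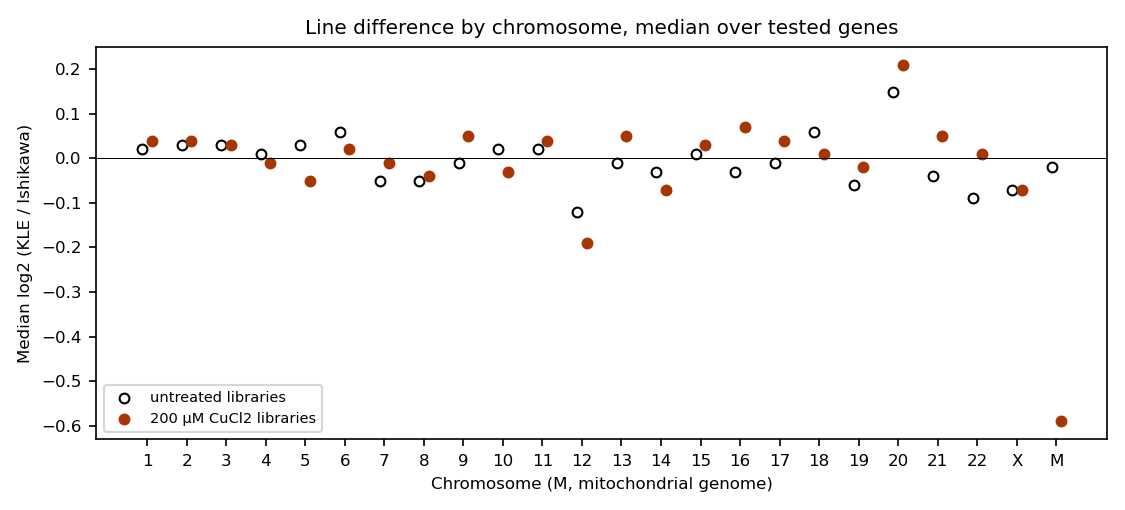
Median log2 difference between KLE and Ishikawa cells over the tested genes of each chromosome, in untreated libraries (open circles) and after 200 µM CuCl2 (filled circles). Chromosome 20 lies above and chromosome 12 below the other nuclear chromosomes in both conditions, while the 13 mitochondrial genes are at -0.59 with copper and -0.02 without.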

How the data were processed

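Polyadenylated RNA of 12 libraries, 3 independent biological replicates for each of 4 groups, was sequenced in 150-base pairs, per the labels' protocols. The submitters' processing notes list HISAT2 2.1.0 and Bowtie2 2.2.8 along with RSEM, fastp 0.18.0, R 4.2.2 and DESeq2, and the genome build GRCh38.p14. Which annotation release was counted is not given in the sources used here. Per gene, the tables as deposited carry the authors' whole raw counts per gene, the authors' expected counts, which round to those counts in every library, and TPM, which the authors scaled to the same sum in each library. Library totals, from 14050275 to 25057003 counts, limit precision for weakly expressed genes.

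The authors' raw counts were fitted with edgeR 4.0.16 in R 4.3.3 (TMM scaling, filterByExpr, robust quasi-likelihood test, two-sided) over all 12 libraries with one mean per group. The 3 contrasts were KLE minus Ishikawa with copper, the same without copper, and the difference of both. Every adjusted p of this main fit is Benjamini-Hochberg adjusted over the 13663 genes tested of 20332 and a gene was called under 0.05. Those of alternative fits were adjusted within each fit. Each log2 value in the text is a fitted difference, KLE minus Ishikawa, unless called a change. Its SE was derived from the test statistic and is too small where counts of a line are few or the difference is very large. CPM are TMM-normalised. Gene types and positions came from the GENCODE annotation of GRCh38, which matched 20113 of the IDs. The procedure was tested on simulated data.

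Genes were named by rule: the 12 protein-coding genes per direction with the largest copper difference, a mean of at least 5 CPM over the 6 copper-treated libraries and no overlap, the 6 per direction with the largest change among those called with copper only, the 5 with the largest opposite differences, the 3 called members per list with the largest difference at a mean of at least 1 CPM over those libraries, and all tested metallothionein, copper transport and Müllerian genes. A few genes that this rule picks are not reported here. The members and the 37 lists were chosen with earlier results of these data known. Lists are described by counts and medians without a set test. Alternatives were other scalings (size factors, upper quartile, library totals), other filters, DESeq2 1.42.0, limma-voom and limma 3.58.1 on log2(TPM + 1) or log2(TPM + 0.1), the copper-treated libraries alone, a replicate block, a fold threshold and leaving out each library.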

Additional observations from a re-analysis of the deposited data

Results flagged for a closer look

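The line difference itself differed between copper-treated and untreated cells, by edgeR's quasi-likelihood test of the difference of both contrasts, for 6206 genes. Among the named genes whose difference was called with copper only, the log2 change toward KLE was 3.34 for DKK1, 1.9 for NYNRIN, 1.89 for PLEKHG5, 1.72 for XKR8, 1.55 for RALB and 1.55 for SH2D5, an SH2 domain adaptor.

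Toward Ishikawa the change was -4.8 for USP17L2, a deubiquitinase of a family of near-identical copies. It was -4.53 for HSPA6, -4.53 for IGF2, -4.38 for RRAD, a Ras-related GTPase of muscle, -4.18 for RFPL4A and -4.05 for F2RL2, a thrombin receptor. In untreated cells USP17L2 and RFPL4A each had 4 counts over the KLE libraries and 2 over the Ishikawa libraries, a ratio of 2.44 with a 95% counting interval from 0.35 to 27.0, so their changes rest on near-empty groups. The change of USP17L2 was -3.61 without untreated KLE replicate 2 (adjusted p = 0.167, edgeR) and that of RFPL4A -2.95 without untreated KLE replicate 3 (adjusted p = 0.269, edgeR) and -6.65 without untreated Ishikawa replicate 3 (adjusted p = 0.00152, edgeR).

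Among the genes that were called in opposite directions, the change was -4.92 for CRYAB, -4.15 for CLU, -3.43 for HMOX1, -2.84 for TUBB3 and 2.9 for the gene CPM. Untreated Ishikawa replicate 2 held the lowest untreated levels of HSPA6, IGF2, CRYAB and CLU. Without it the changes were -3.75 for HSPA6, -3.82 for IGF2, -3.58 for RRAD, -4.29 for CRYAB and -3.8 for CLU, and each was still called.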

How the results depend on the processing

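Requiring an absolute log2 difference of at least 1 left 2090 calls with copper, 1458 without and 941 for the change. Leaving out single libraries gave 8372 to 8501 calls with copper, 6035 to 6842 without and 5598 to 6530 for the change. The other alternatives gave 8052 to 9265 calls with copper, and DESeq2 made 8542, of which 8250 were calls in the same direction here. The share of change calls toward KLE was 54.1% here, 63.9% with library totals, 64.8% on log2(TPM + 1), 64.6% on log2(TPM + 0.1), 47.9% with size factors, 46.2% with DESeq2 and 48.9% with no filter. It was 45.4, 45.9 and 46.3% without each copper-treated Ishikawa library, 47.0% without untreated KLE replicate 1 and 47.4% without copper-treated KLE replicate 3, so the majority side is not settled. Of 2804 values of 165 named genes under copper, 0 changed direction with a call in either fit. Of the same values, 23 lost their call and 14 gained one, in 10 genes. Changes of sign without a call in either fit were not counted. Same-numbered libraries of both lines showed no shared deviation (correlations 0.02, -0.081 and -0.045 with copper and -0.068, 0.016 and 0.072 without). Whether they were handled together cannot be told from these values. With a replicate block there were 8905, 6775 and 6132 calls, and SLC30A1 gained its call (-0.14, adjusted p = 0.0364). Depth limits genes of a few counts, such as IL1B and MT1G without copper.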

Other observations

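Autophagy genes differed in both directions. Under copper 10 of 24 were higher in Ishikawa and 7 in KLE cells (41.7% and 29.2%, near the 32.3% and 33.3% of all genes), against 5 and 12 without it, and the change was called toward Ishikawa for 11 and toward KLE for 3. GABARAPL1, a ubiquitin-like protein of the autophagosome, stood at 157, 154 and 157 CPM in copper-treated Ishikawa and 45.6, 43.3 and 49.7 CPM in KLE libraries. Its relative MAP1LC3B, which encodes LC3B, stood at 407, 428 and 390 against 146, 144 and 158 CPM, a log2 difference of -1.45 that was 0.22 without copper. WIPI1, a phosphoinositide binder of early autophagosomes, was on the KLE side at 1.35.

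TGF-beta and BMP genes differed in both directions, with 10 of 20 higher in KLE and 8 in Ishikawa cells under copper and 8 each without it. Under copper these were 50% and 40%, against 33.3% and 32.3% of all genes. LTBP2, a matrix protein of the latent TGF-beta binding family, stood at 6.38, 4.58 and 5.71 CPM in copper-treated Ishikawa and 64.8, 60.1 and 59 CPM in KLE libraries. BMP4, a ligand, differed by 3.04. LRRC32, the membrane anchor of latent TGF-beta known as GARP, was on the Ishikawa side at 10.8, 12 and 11 against 1.68, 2.12 and 1.51 CPM, and its difference of -2.67 was -2.82 without copper. The list of apoptosis regulators had 8 of 23 higher in KLE and 6 in Ishikawa cells (34.8% and 26.1%), near the shares of all genes. CASP9, the initiator caspase of the mitochondrial pathway, was 1.96 higher in KLE cells, and HRK, a BH3-only protein, differed by -3.31 toward Ishikawa cells.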
